A study of Mus musculus with 2 samples.

Results

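Cytosolic ribosomal protein genes were taken as every gene symbol in the deposited feature lists that begins with Rpl or Rps and continues with a ribosomal protein number, a letter or an l or x ending, together with Rpsa, Rplp0, Rplp1 and Rplp2. The rule found 85 of the 32285 listed genes. Of these, 77 encode core proteins of the ribosome and 8 are paralogs or matches outside it: Rpl22l1, Rpl36al, Rps27l, Rpl7l1, Rpl39l, Rpl10l, Rpl3l and Rps6kl1. Rps6kl1 is a kinase-like gene that matches by name alone, and Fau, which encodes a ribosomal protein fused to a ubiquitin-like domain, lies outside the rule. In all, 82 genes reached 50 CPM in at least 1 library in the 4 pooled clusters described below, and Rps6kl1, Rpl10l and Rpl3l did not. CPM counts UMIs in every 1000000, and a UMI, or unique molecular identifier, marks 1 captured RNA molecule.

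The cells were mouse embryonic stem cells of the inbred strain C3H/HeSn-Paf/J, from 9 lines, 3 each of XX, XO and XY embryos, mixed in 1 culture. They were grown in serum and LIF, a cytokine that holds such cells undifferentiated, on gelatin and irradiated mouse embryonic fibroblasts, the feeder cells. Time 1 was an early passage and time 2 followed 10 passages later, each as 1 droplet library with no replicate. Cells were not traced back to their lines, so a library or a cell class within it is 1 sample, no test between groups was made, and every interval below is an exact 95% interval that covers counting error only.

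A ribosome has a large and a small subunit, each built on ribosomal RNA from proteins most of which are present once in it. Many of the genes for these proteins begin transcription at a pyrimidine run, and the messenger RNAs that carry it at their 5′ end are translated together under control of growth signalling. The genes are scattered over nearly all chromosomes, so an extra copy of a chromosome changes the gene number of a few subunits only. Gains of chromosomes 1, 8, 11 and 14 and loss of an X chromosome are known from mouse embryonic stem cell cultures.

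Stretches around the start sites of 14 members are shown, which are all those in the promoter table that lie on the chromosomes whose dosage varied in these cells (1, 8, 14, 11 and X). They come from RefSeq on GRCm38.p6, run from 40 bases before to 20 bases after the annotated start on the gene's own strand, and carry in capitals the longest run of C and T in the stretch. Runs span from 3 bases in Rpl23 to 17 in Rpl15, and those of Rpl31, Rpl13, Rpl15, Rps24, Rpl27, Rpl38 and Rpl39 reach 8 or more. Only the marked runs of Rpl15, Rps24 and Rpl38 cross the annotated start, and the others lie before it.
Rpl31 (chr1:39367811-39367870, + strand): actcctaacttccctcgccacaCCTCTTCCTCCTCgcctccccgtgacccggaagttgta
Rpl37a (chr1:72711220-72711279, + strand): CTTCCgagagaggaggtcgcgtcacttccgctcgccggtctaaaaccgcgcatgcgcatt
Rpl13 (chr8:123102310-123102369, + strand): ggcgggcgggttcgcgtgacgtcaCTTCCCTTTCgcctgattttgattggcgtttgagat
Rpl15 (chr14:18270967-18271026, - strand): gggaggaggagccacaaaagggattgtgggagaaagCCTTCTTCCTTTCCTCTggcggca
Rps24 (chr14:24490638-24490697, + strand): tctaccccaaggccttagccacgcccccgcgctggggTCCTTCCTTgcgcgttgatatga
Rpl19 (chr11:98026670-98026729, + strand): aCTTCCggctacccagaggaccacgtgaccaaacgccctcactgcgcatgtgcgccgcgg
Rpl23 (chr11:97782420-97782479, - strand): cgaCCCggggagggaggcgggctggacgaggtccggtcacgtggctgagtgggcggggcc
Rpl26 (chr11:68901526-68901585, + strand): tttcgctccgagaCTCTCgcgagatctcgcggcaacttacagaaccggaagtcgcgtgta
Rpl27 (chr11:101442205-101442264, + strand): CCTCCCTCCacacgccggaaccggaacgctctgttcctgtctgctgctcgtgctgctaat
Rpl38 (chr11:114668540-114668599, + strand): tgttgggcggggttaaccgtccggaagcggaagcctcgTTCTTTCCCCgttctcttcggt
Rpl10 (chrX:74270776-74270835, + strand): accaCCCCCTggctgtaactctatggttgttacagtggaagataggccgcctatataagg
Rpl36a (chrX:134585614-134585673, + strand): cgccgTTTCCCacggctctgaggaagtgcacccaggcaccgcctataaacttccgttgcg
Rpl39 (chrX:37085203-37085262, - strand): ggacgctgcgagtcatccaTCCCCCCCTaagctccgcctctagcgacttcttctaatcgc
Rps4x (chrX:102189372-102189431, - strand): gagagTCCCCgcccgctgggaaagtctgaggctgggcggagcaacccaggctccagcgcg
The table of promoters held 66 of the 85 members. Rpl7 was not among them. In the window from 50 bases before to 50 bases after the start, 52 of the 66 (78.8%) held a run of at least 8 C or T letters on the gene's strand, against 35.7% of all 27025 promoters in the table. On the opposite strand the shares were 24.2% and 37.2%. The letters TTCCGG or their reverse complement CCGGAA were in 28.8% of members' windows and 8.43% of all windows. These are letter matches, not binding sites.

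After filtering, 24299 cells remained at time 1 and 25268 at time 2, and 165 barcodes occurred in both libraries (0.679% and 0.653% of cells). Clusters were built without the members and their annotated retrocopies, so member levels did not shape them. Most results use clusters 3, 6, 7 and 8, called the 4 pooled clusters here (9834 cells at time 1, 19738 at time 2). All 12 pluripotency markers were detected in each of them, but also in clusters 0, 1, 5, 12, 13 and 14. The markers summed to 9689, 11977, 6838 and 5921 CPM in clusters 3, 6, 7 and 8. Cluster 0, led by Notch2 with 5939 of 5942 cells from time 1, had 7941 CPM but was not pooled. The pooled clusters are kept as numbers, because Krt7, a trophoblast marker, was among the 10 leading genes of cluster 3, led by H19. Cluster 6 was led by Usp26 and genes of the Xlr family, which are X-linked, with Jam2 and Tbx3 also among its 10 leading genes, cluster 7 by Nanos3 and cluster 8 by Mras. Clusters 3 and 6 held cells of both libraries (7016 and 679, and 2661 and 2200), while 6998 of 7108 cells of cluster 7 and 9861 of 9908 of cluster 8 came from time 2, so passage and cluster cannot be told apart there. Cells had medians of 50660 UMIs at time 1 and 50745 at time 2 in the 4 pooled clusters, and mitochondrial genes took 2.46% and 2.25% of UMIs.

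Ribosomal protein genes took a large share of all captured molecules, and a smaller one at time 2. In the 4 pooled clusters they held 31.8% of UMIs at time 1 (177465001 of 557296115, interval 31.84 to 31.85%) and 29.8% at time 2 (interval 29.81 to 29.82%), a difference of -2.03 points. The middle cell held 31.96% (quartiles 29.94 and 34.13%) and 29.82% (28.13 and 31.51%), so the cells of the libraries overlapped widely. Within cluster 6, the most balanced of the 4, the difference was -1.18 points, and without cluster 3 it was -0.58. The value thus varied with the clusters summed, and the part of their mix in it was not tested.

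Part of the -2.03 points came from few genes, the 4 X-linked members. They gave -0.63 points, from 1.66% to 1.02% of all UMIs. The 14 members on chromosome 7, where the most members lie, gave -0.43, but from a larger share, 6.06% at time 1 and 5.63% at time 2. Chromosomes 1 and 8 went the other way, by 0.26 points with 3 members and 0.18 points with 2. Chromosome 14 gave 0.0073 points. Each of the other 14 chromosomes that carry members was lower at time 2.

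**Figure D1:**
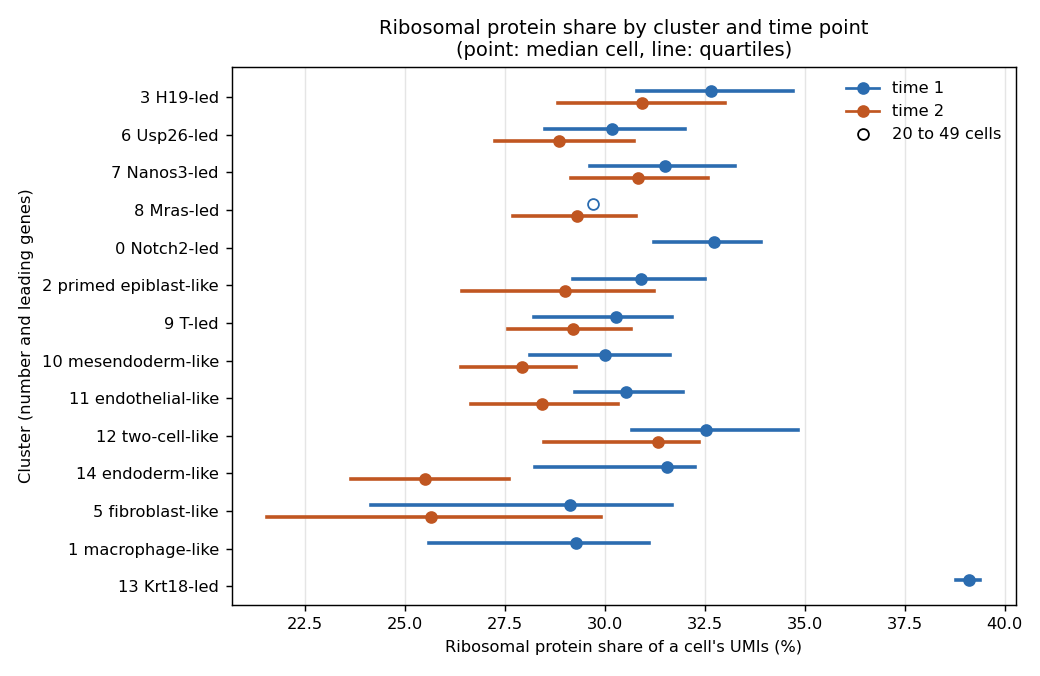
Ribosomal protein share of a cell's UMIs (%, horizontal axis) for each cluster at time 1 and time 2. Points are median cells and lines quartiles, and open circles mark classes of 20 to 49 cells. Time 2 lies left of time 1 wherever both are drawn, and the fibroblast-like cluster spreads lowest.

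The same direction held in cells of other kinds. In all 10 clusters with at least 50 cells in both libraries the median cell had a lower share at time 2. The primed epiblast-like cluster 2, with Fgf8, Fgf5 and Pou3f1 among its leading genes, went from 30.9 to 28.99%. The mesendoderm-like cluster 10, which expresses Mixl1 and Gsc, went from 29.99 to 27.9%. The two-cell-like cluster 12, with transcripts of the earliest embryo, went from 32.5 to 31.3%, and cluster 9, led by T, from 30.3 to 29.2%. The endothelial-like cluster 11 went from 30.5 to 28.4%. The widest drop was in the endoderm-like cluster 14, from 31.6 to 25.5%, with only 63 and 108 cells and median depths of 28593 and 64091 UMIs.

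Fibroblast-like cells, the type of the feeders, had a lower share than the 4 pooled clusters in both libraries. Their summed share was 26.7% at time 1 and 26.3% at time 2, or -5.13 and -3.51 points against the 4 pooled clusters. Their cells were spread widely, with a 5th to 95th percentile range of 17.5 to 34.1% at time 1 and 17.2 to 34.7% at time 2. Medians of these cells were 29.1% and 25.7%, a larger difference than between the sums. Pluripotency markers summed to 3656 and 2703 CPM in these cells, against 10546 and 6981 in the 4 pooled clusters. The 7 fibroblast markers summed to 2115 and 1792 CPM, against 5.69 and 5.25, with 6 of 7 above 10 CPM in both libraries. The 9 markers of primitive or parietal endoderm summed to 1929 and 2311 CPM, against 165 and 183, with 4 of 9 above 10 CPM, and the list holds Sparc and Col4a1, which fibroblasts also express. Malat1, a nuclear RNA, took 1.32% and 1.1996% of UMIs, against 0.395% and 0.351%. Their part in the values was not tested.

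Depth moved with the share inside time 1. By quartile of UMIs per cell, median shares were 33.0, 32.4, 31.7 and 31.2% at time 1 and 30.4, 29.7, 29.6 and 29.7% at time 2, from shallow to deep. In every quartile time 2 was lower. Barcodes under 1000 UMIs, too shallow to be kept as cells, had 28.2% at time 1 and 20.6% at time 2, a gap wider than that between cells. The part of RNA outside cells in the difference between cells was not tested.

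Across single genes, most members were slightly lower at time 2, with 4 X-linked genes among the 5 lowest and 3 chromosome 1 genes among the 5 highest. Of 82 members in the 4 pooled clusters, 17 had a log2 ratio of time 2 over time 1 above 0 and 65 below, with a median of -0.10, against 0.09 over all 2828 genes of at least 50 CPM. Of those 2828 genes, 1676 were above 0. With TMM scaling, which assumes that most genes do not differ, the medians were 0.04 and 0.23. Scaling shifts all genes by nearly the same amount, so the distance between members and all genes, -0.19 under both, could not differ between them. At least 1.2-fold higher were 5 members, where 29.9% of all genes were, and at least 1.2-fold lower were 11, where 17.9% of all genes were. Core proteins of the small subunit (31 genes) had a median of -0.09 and those of the large subunit (46 genes) of -0.12.

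The 5 lowest were the 4 X-linked members and Rpl9. Rpl39, a short large-subunit protein at the exit tunnel, went from 5387 to 2974 CPM (log2 -0.86, interval -0.859 to -0.855). Rpl10, which joins the large subunit late in assembly, went from 3144 to 1880 CPM (-0.74). Rpl36a went from 2467 to 1616 CPM (-0.61) and Rps4x, a small-subunit protein, from 5581 to 3777 CPM (-0.56). The 103 other X-linked genes had a median of -0.45. Rpl9 on chromosome 5 went from 3864 to 2920 CPM (-0.40), and its annotated retrocopy Rpl9-ps6 had 47.8 CPM at time 1 and 31.4 at time 2. The most abundant annotated retrocopy at time 1 was Rpl10-ps3, with 49.7 CPM (26.3 at time 2). Reads that match both a gene and such a copy could have been lost or split in the counting, which was not tested.

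The 5 highest were the 3 chromosome 1 members, Rpl7l1 and Rpl27. Rpl31 went from 1657 to 2254 CPM (log2 0.44, interval 0.441 to 0.447), Rpl37a from 3521 to 4553 CPM (0.37) and Rpl7 from 3213 to 4153 CPM (0.37), all of them large-subunit proteins. Under TMM scaling 8 members were higher, where 46.1% of all genes were, and 4 lower, where 11.9% were. The 154 other genes on chromosome 1 had a median of 0.46. Rpl7l1, a paralog of Rpl7 on chromosome 17 that is linked to ribosome assembly, went from 173 to 222 CPM (0.36). Rpl27 on chromosome 11, a large-subunit protein, went from 2217 to 2715 CPM (0.29). The other members on chromosome 11 ranged from -0.23 for Rpl38 to -0.07 for Rpl23a, with Rpl23 at -0.21, Rpl19 at -0.16, Rpl26 at -0.12 and Rps27a at -0.09.

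On chromosome 8, Rpl13, a large-subunit protein, went from 7817 to 9149 CPM (log2 0.23), under the median of 0.44 of the 172 other genes there. On chromosome 14, Rpl15 had 4407 and 4831 CPM (0.13) and Rps24 had 6043 and 5692 CPM (-0.09), where 98 other genes had a median of 0.28. Members on chromosomes 1, 8, 11 and 14 thus had lower medians than their neighbours, as did members on X. In the 4 pooled clusters this was not particular to them, since all 82 members had a median of -0.10 and the 2746 other genes 0.10. For X the gap was wider than the general one inside single clusters. In cluster 6 X-linked members had -0.28 and other X-linked genes -0.02, beside -0.07 for all members and 0.08 for other genes. In cluster 3 these medians were -0.30, 0.003, -0.10 and 0.08.

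The chromosome pattern was far weaker in clusters with few gains. In cluster 6 the chromosome 1 members were at 0.04 (Rpl7), 0.09 (Rpl37a) and 0.14 (Rpl31), and Rpl13 on chromosome 8 at -0.05. Between cells without a called gain in either library the 3 members of chromosome 1 were at -0.05, 0.04 and 0.15 and Rpl13 was at -0.15. The X-linked members stayed lower in cluster 6, from -0.34 for Rpl10 to -0.16 for Rpl36a, while the 122 other X-linked genes had a median of -0.02. Of the cells of cluster 6, 2415 were X-high and 54 X-low at time 1, and 2050 and 54 at time 2, by the X dosage described below.

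Rpl27, Rpl9 and Rpl35 had similar values in cells of different kinds, but they were not the only members to do so. Rpl27 was higher at time 2 by 0.26 in cluster 3, 0.35 in cluster 6, 0.33 in cluster 2 and 0.32 in the fibroblast-like cluster 5. Rpl9 was lower by log2 ratios of -0.35, -0.32, -0.32 and -0.27 in the same order, and Rpl35, at -0.34 in the 4 pooled clusters, had -0.33, -0.30, -0.34 and -0.25. The X-linked Rpl10 had -0.38, -0.34, -0.37 and -0.39 in that order. Rpl7l1 was less even, at 0.01, 0.38, 0.07 and 0.34. In the fibroblast-like cells the X-linked members were at -0.46 (Rpl39), -0.39 (Rpl10), -0.29 (Rpl36a) and -0.17 (Rps4x) and the chromosome 1 members between 0.18 and 0.25, and their content of molecules from other cells was not tested.

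The 5 most abundant members were the same in both libraries, in CPM without a length correction, since each UMI marks 1 captured transcript end. Rpl13 led with 7817 and 9149 CPM. Among the others were Rps12 (6978 and 6901), Rps20 (6918 and 6478) and Rplp1, a stalk protein (6741 and 6914). Of these 3, Rplp1 was the lowest at time 1 and the highest at time 2.

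**Figure D2:**
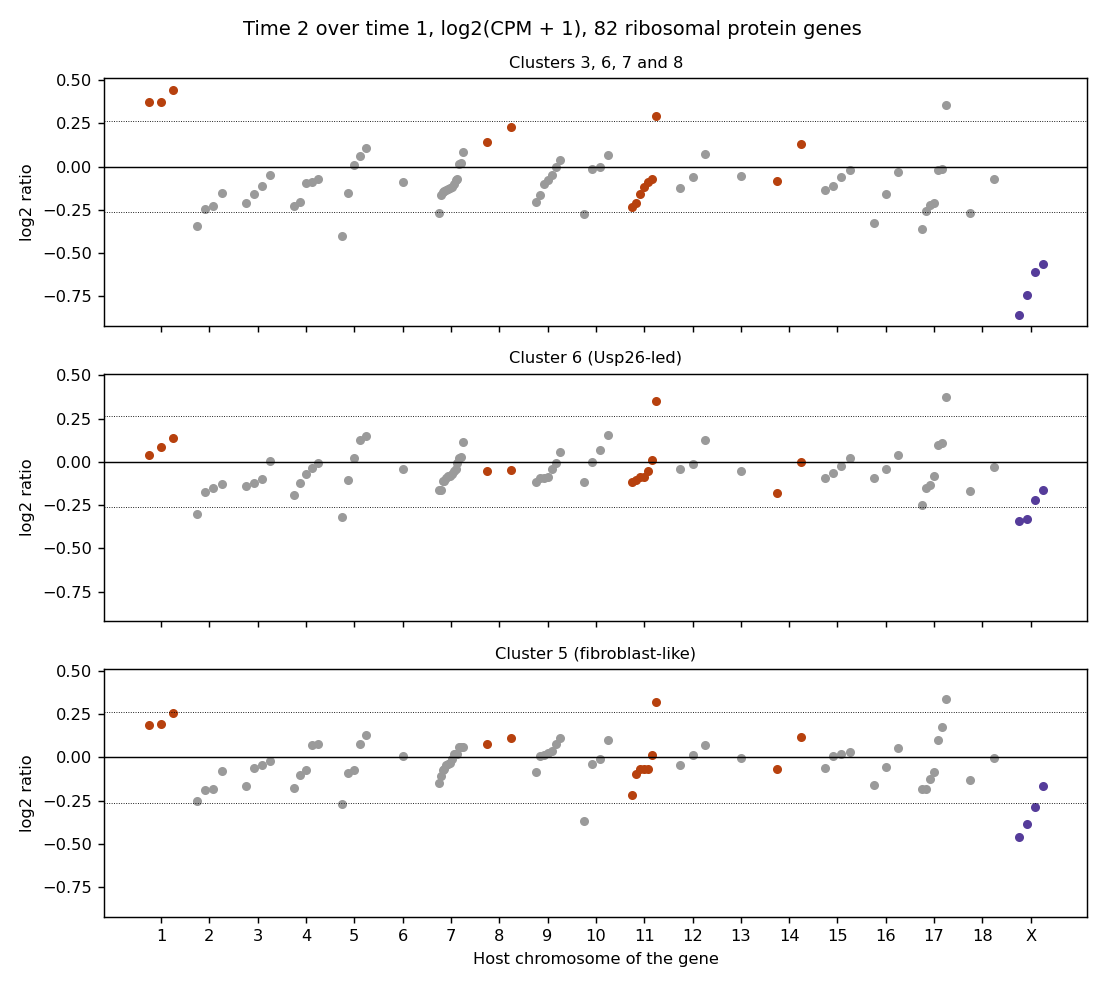
Log2 ratio of CPM + 1, time 2 over time 1 (vertical axis), for each of 82 members by host chromosome (horizontal axis), in the 4 pooled clusters, cluster 6 and the fibroblast-like cluster 5. Dotted lines mark 1.2-fold. Chromosome 1 members stand highest and X members lowest in the upper panel, from 0.44 for Rpl31 to -0.86 for Rpl39, and Rpl27 stands above its neighbours on chromosome 11 in all 3.

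Chromosome gain classes gave the clearest view of gene dosage. A gain was called in a cell where the chromosome's share of UMIs was at least 1.3 times the time 1 median, relative to autosomes other than 1, 8, 11 and 14. Cells clearly under that value for all 4 had no gain, and cells in between were left out. The calls used no ribosomal protein gene but did use the other genes of each chromosome, so the ratios of those genes between classes are in part fixed by the calls and those of members are not, and a member below its neighbours' median is a description only. The same holds for X dosage. At time 1, 8152 of 9834 cells had no gain (82.9%), 844 had a gain of 8 alone, 142 of 1 alone and 123 of 11 alone. At time 2, 2776 of 19738 cells had none (14.1%), 5452 had 1+8, 3877 had 1+8+14, 2939 had 8 alone and 941 had 1 alone. Chromosomes 14 and 11 alone had 11 and 48 cells at time 2, under the minimum of 50, so they are given by classes that differ in that chromosome beside others, a choice made after the class sizes were seen. A gain in expression was called, not a counted chromosome.

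Rpl7, Rpl31 and Rpl37a followed chromosome 1. With the gain alone at time 2, Rpl7 had 4631 CPM against 3051 in cells with none (1.52-fold, log2 0.60, interval 0.595 to 0.609). Rpl31 had 2565 against 1825 CPM (log2 0.49) and Rpl37a 5162 against 3622 CPM (0.51). The 3 of 3 members past 1.2-fold compare with 12.5% of all genes and with 83.4% of the 175 other genes on chromosome 1, whose median was 0.52. At time 1, with 142 cells, they were at 0.64, 0.55 and 0.52, where 10.5% of all genes passed. Adding chromosome 1 to a gain of 8 gave 0.58, 0.60 and 0.54, where 7.47% of all genes passed. Within cluster 7 the values were 0.59, 0.53 and 0.55, where 7.85% of all genes passed, and within cluster 8 they were 0.57, 0.54 and 0.53, where 7.59% did.

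Rpl13 followed chromosome 8. At time 2, Rpl13 had 10289 CPM with the gain and 6713 without (log2 0.62, interval 0.613 to 0.620), where 14.5% of all genes passed 1.2-fold. At time 1 Rpl13 had 11245 and 7460 CPM (0.59), where 9.94% of all genes passed. The other genes of chromosome 8 had medians of 0.54 in both libraries. Adding chromosome 8 to a gain of 1 gave 0.53 for Rpl13, where 7.51% of all genes passed. Rpl13 was at 0.63 within cluster 7, 0.55 within cluster 8 and 0.55 within cluster 3 at time 1, where 7.84%, 8.73% and 10.4% of all genes passed.

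Rpl15, a large-subunit protein, and Rps24, a small-subunit protein, followed chromosome 14. In cells with 1+8+14, Rpl15 had 6037 CPM against 4379 in cells with 1+8 (log2 0.46), and Rps24 had 7080 against 5116 CPM (0.47). Both were below the median of 0.54 of 113 other genes on the chromosome, and 7.63% of all genes passed 1.2-fold. In cells with 1+14 over those with 1 alone, they were at 0.46 and 0.55, where 6.1% of all genes passed. Within cluster 7 they were at 0.48 and 0.52 and within cluster 8 at 0.47 and 0.48, where 5.13% and 6.79% passed.

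The 7 members on chromosome 11 were all higher with its gain but not by equal amounts. At time 1, with 123 cells, Rpl26 had 4528 CPM against 2987 (log2 0.60, interval 0.585 to 0.616) and Rpl27 had 3295 against 2191 CPM (0.59). Rps27a, a fusion of ubiquitin to a small-subunit protein, had 0.48, Rpl19 0.48, Rpl38 0.44, Rpl23a 0.43 and Rpl23, at 8379 against 6262 CPM, had 0.42. All 7 passed 1.2-fold, as did 14.4% of all genes and 91.4% of the 292 other genes there, whose median was 0.52. The intervals of Rpl26 and Rpl27 do not meet those of the other 5. Rpl26 was the highest of the 7 at time 2 as well in 1+8+11 over 1+8 (0.62) and in 1+8+11+14 over 1+8+14 (0.73), while in 8+11 over 8 it was Rpl27 (0.59, beside 0.54 for Rpl26), where 15.2%, 13.8% and 14.5% of all genes passed. Rpl23 and Rpl23a gave 0.37 and 0.33 in the first of these classes, the lowest of the 7. Within cluster 3 at time 1 Rpl26 was at 0.62 and Rpl23 at 0.39, where 17.8% of all genes passed. These time 2 classes held 101, 194 and 61 cells.

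**Figure D3:**
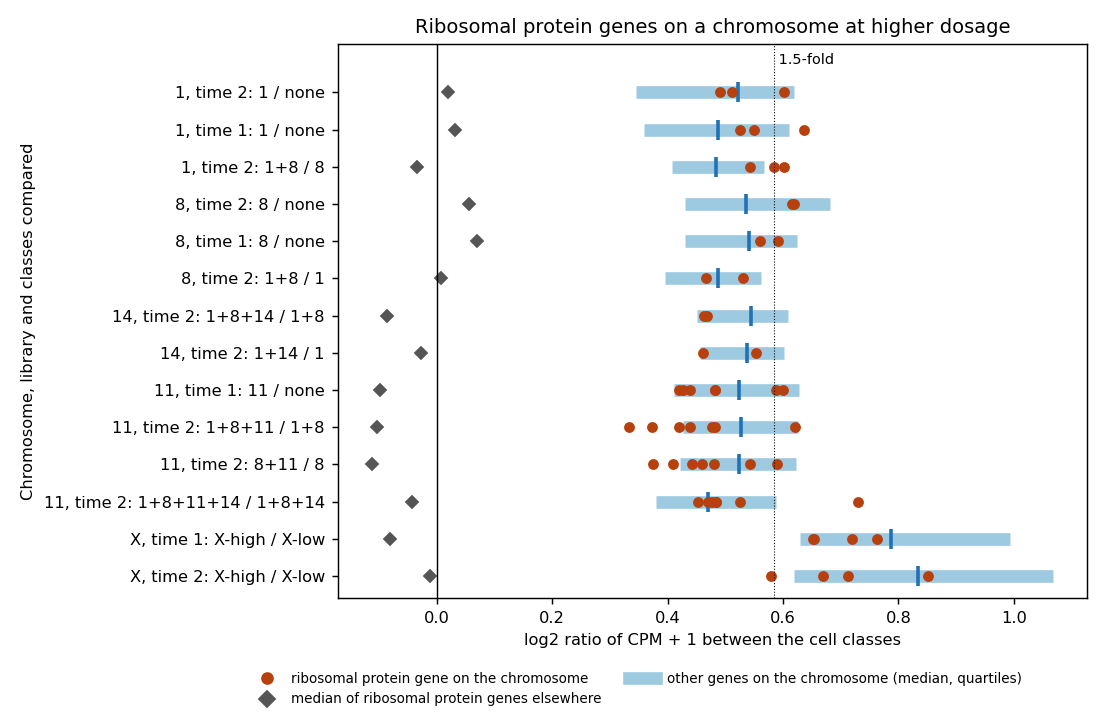
Log2 ratio of CPM + 1 between cell classes (horizontal axis) for contrasts of chromosome gain or X dosage over the 4 pooled clusters (vertical axis), without those inside single clusters or among cells without a gain. Circles are members on the chromosome, diamonds the median of autosomal members on none of chromosomes 1, 8, 11 and 14 (for X, of all other members), and bars the median and quartiles of other genes on the chromosome. Circles lie at 0.33 to 0.85, and diamonds between -0.11 and 0.07.

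X-linked members were higher in cells with high X dosage. X dosage was read from X-linked UMIs without members, in cells with no Y-linked UMI. It was called high at 1.2 or more relative to cells with Y transcripts in the same library. At time 1, Rpl39 had 6426 CPM in 5419 X-high cells and 3787 in 2958 X-low cells (log2 0.76), Rpl10 had 3708 and 2252 CPM (0.72), Rps4x 6506 and 4137 CPM (0.65) and Rpl36a 2878 and 1830 CPM (0.65). The 115 other X-linked genes had a median of 0.79, and 12.1% of all genes passed 1.2-fold. At time 2, with 2988 and 14230 cells, the members were at 0.85, 0.67, 0.58 and 0.71 in the same order, other X-linked genes at 0.83 and 17.6% of all genes passed. Within cluster 7 at time 2 they were at only 0.26 to 0.40 beside 0.41 for other X-linked genes, and 6.37% of all genes passed. Within cluster 3 they were at 0.67 to 0.78 at time 1 and 0.51 to 0.62 at time 2 beside 0.75 and 0.61, with 13.1% and 12.8% of all genes past 1.2-fold. Within cluster 6, with 54 X-low cells in each library, they were at 0.58 to 0.73 and 0.52 to 0.73 (13.7% and 14.1%), and among cells without a gain at 0.66 to 0.78 and 0.63 to 0.88 (11.5% and 15.2%).

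Levels within an X class differed between the libraries, but each library had its own reference, so a class need not hold equal dosage in both. X-high cells had 6426 CPM of Rpl39 at time 1 and 4731 at time 2, and X-low cells 3787 and 2622. Rpl10 had 3708 and 2721 CPM in X-high cells and 2252 and 1710 in X-low cells. Both genes were lower at time 2 in both classes, beside a larger share of X-low cells. Whether a class held the same X dosage in both libraries was not tested.

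The members outside a gained chromosome had medians near 0, with signs that differed by chromosome and, for chromosome 1, by the classes compared. Counts of members on either side of 0 are description only, since the same counts over all genes were not made. Over the 64 autosomal members on none of chromosomes 1, 8, 11 and 14, the median log2 ratio was 0.02 for chromosome 1 and 0.06 for chromosome 8 at time 2, with 52 of 64 above 0 for chromosome 8. At time 1 the chromosome 8 value was 0.07, with 59 of 64 above 0. In 1+8 over 1 it was 0.008, with 36 of 64 above 0, and inside cluster 8 it was 0.012, with 38 of 64. Inside cluster 7 it was 0.04, with 52 of 64, and inside cluster 3 at time 1 it was 0.03, with 54 of 64. For chromosome 1 the value at time 1 was 0.03, with 43 of 64 above 0, and at time 2 inside cluster 7 it was 0.004, with 35 of 64. In 1+8 over 8 it was -0.03, with 46 of 64 below 0, and inside cluster 8 it was -0.017. For chromosome 14 (1+8+14 over 1+8) it was -0.09, with 63 of 64 below 0, beside -0.03 in 1+14 over 1 (54 of 64), -0.05 inside cluster 7 (59) and -0.07 inside cluster 8 (62). For chromosome 11 at time 1 it was -0.10, with 60 of 64 below 0. Relative to summed members, a scaling that by construction brings the members towards 0, the medians for chromosomes 14 and 11 were -0.03 and -0.05 and 32 of 64 were above 0 for chromosome 8 at time 2. The median for chromosome 11 was below 0 at time 2 too, at -0.10 in 1+8+11, -0.11 in 8+11 and -0.04 in 1+8+11+14, each over the class without it. Other genes off the gained chromosome had medians of -0.02, -0.04 and -0.06 in these classes, so members stood above them in the last. At time 2 these genes had -0.04 for 1 over none, and -0.03 for 8 over none and for 1+8 over 8. Inside cluster 8 they had -0.055 for chromosome 1, under the members. In 1+8+14 over 1+8 they had 0.02, and at time 1 -0.02 for 8 and for 11 over none.

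The summed share differed by class too, with a sign that for chromosomes 1 and 11 depended on the classes compared. Cells with 8 alone had 30.6% at time 2 against 29.4% with none, 1.18 points more. At time 1 the values were 33.1% and 31.7%, 1.39 points more. Cells with 11 alone at time 1 had 30.5%, or -1.17 points against none, made of 1.11 points from the 7 members on the chromosome and -2.27 from all others. Cells with 1+8+14 had 28.9% and those with 1+8 had 30.2%, -1.22 points. For chromosome 1 alone at time 2 the difference was 0.27 points, which turned to -0.11 among X-low cells only and to -0.027 where gains were called in cells thinned to 10000 UMIs, relative to all autosomes and with every lower value taken as no gain, choices that were changed together. Adding chromosome 1 to a gain of 8 gave -0.42 points, and adding 8 to a gain of 1 gave 0.48. Chromosome 11 gave -1.30 points in 1+8+11 over 1+8 and -1.19 in 8+11 over 8, but 0.14 in 1+8+11+14 over 1+8+14. For 1+14 over 1 the difference was -0.083. Among X-low cells the value for 8 alone at time 2 was 0.77 points and that for 11 alone at time 1 was -2.46, the latter from only 35 cells with the gain, under the minimum of 50.

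The classes differed in more than the gain. Cells with none at time 2 were mostly in cluster 6 (1806 of 2776), those with 8 alone mostly in cluster 7 (1894 of 2939) and those with 1+8+14 mostly in cluster 8 (3246 of 3877). Inside cluster 7 the difference for 8 alone was 1.24 points and inside cluster 8 it was 0.54. Inside cluster 3 at time 1 it was 0.74 for chromosome 8 and -1.72 for chromosome 11. For 1+8+14 over 1+8 it was -0.46 inside cluster 7 and -0.91 inside cluster 8. Median UMIs per cell were 44130 with 8 alone and 52854 with none at time 2. Mitochondrial genes took 2.12% and 1.77% of UMIs in them, and pluripotency markers summed to 6901 and 11194 CPM. Their part in the differences was not tested.

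**Figure D4:**
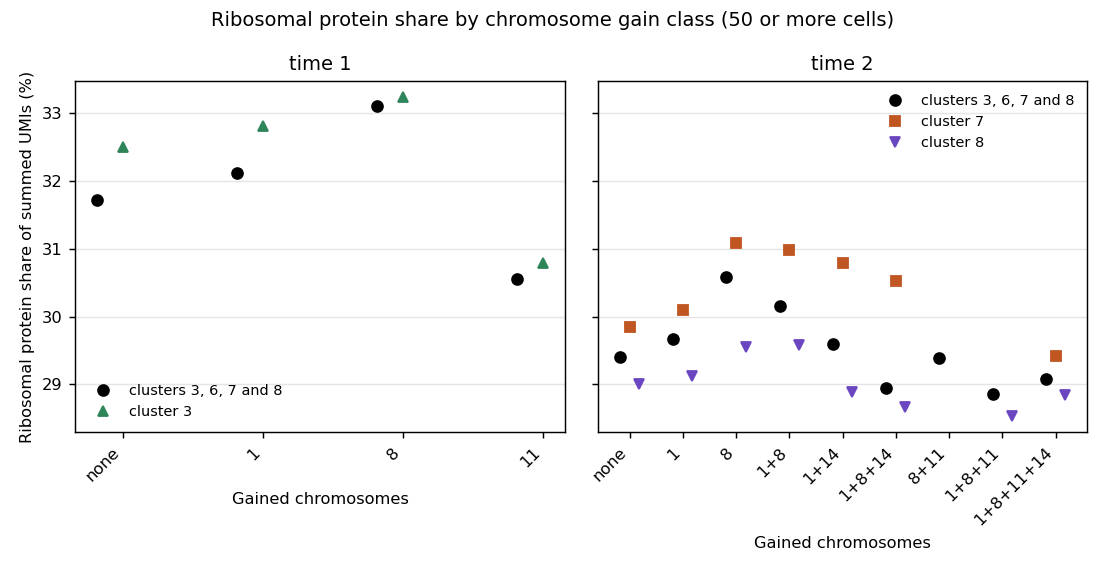
Ribosomal protein share of summed UMIs (%, vertical axis) by gained chromosomes (horizontal axis) at time 1 and time 2, for the 4 pooled clusters and for single clusters, in classes of at least 50 cells. In the pooled clusters cells with 8 alone stand above those with none, 33.1 and 31.7% at time 1 and 30.6 and 29.4% at time 2, and 1+8+14 (28.9%) and 1+8+11 (28.9%) stand below 1+8 (30.2%).

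Among members elsewhere, those past 1.2-fold were few and mostly the same. In 8 over none at time 2, 5 of 80 were lower, where 17.1% of all genes were: the 4 X-linked members, from -0.69 for Rpl39 to -0.47 for Rps4x, and Rpl39l. The X-linked members were lower also with 1, 8 or 11 over none at time 1 and 1 over none at time 2. Cells with none were largely X-high at time 2 (2103 X-high and 563 X-low), and between 1+8 and either 1 or 8 no X-linked member passed.

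Rpl39l and Rpl22l1 were the other members that passed repeatedly, and both are paralogs. Rpl39l had 69.0 CPM with 8 alone and 156 with none at time 2 (log2 -1.17), and 66.9 and 128 CPM at time 1 (-0.92). The difference was -0.72 inside cluster 7, -0.54 inside cluster 8 and -0.55 inside cluster 3 at time 1. Rpl22l1, a paralog of Rpl22, went the other way, with 1237 CPM against 1007 at time 2 (0.30) and 1473 against 1143 at time 1 (0.37). Adding 8 to a gain of 1 gave 0.40 for Rpl22l1 and -0.40 for Rpl39l, while adding 1 to a gain of 8 gave 0.42 for Rpl39l. A gain of 1 alone over none went the other way for Rpl39l, at -0.35 at time 1 and -0.35 at time 2. With chromosome 1 alone Rpl22l1 was lower, at -0.29 over none at time 2, -0.37 inside cluster 7 and -0.30 inside cluster 8. Its own gene lies on chromosome 3 and that of Rpl39l on chromosome 16. With chromosome 14 added to 1+8, Rpl39l was the only member elsewhere past 1.2-fold (-0.35), and with chromosome 11 added to 1+8 as well (-0.50).

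These counts of lower members stand beside the following shares of all genes at least 1.2-fold lower. For chromosome 1 over none they were 18% at time 2 (6 members of 79), 14.1% at time 1 (5 of 79), 8.69% within cluster 7 (2) and 6.92% within cluster 8 (2), and for 1+8 over 8 the share was 6.88% (0 members). For chromosome 8 over none they were 12.2% at time 1 (5 of 80), 7.41% within cluster 7 (1), 5.13% within cluster 8 (1) and 11.6% within cluster 3 (5), and for 1+8 over 1 the share was 5.53% (1). For chromosome 14 they were 3.46% in 1+8+14 over 1+8 (1), 1.56% and 2.87% within clusters 7 and 8 (1 each) and 3.87% in 1+14 over 1 (0). For chromosome 11 they were 9.29% at time 1 (5 of 75), 11.2% within cluster 3 (5), 6.2% in 1+8+11 (1), 9.43% in 8+11 (0) and 10.8% in 1+8+11+14 (0).

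Across clusters most members kept similar proportions, but the same ranges were not computed for other genes, so this is not shown to be particular to members. As a share of all member UMIs, 74 of 82 members varied by less than 0.5 on the log2 scale over 12 clusters at time 1, and 71 of 82 over 11 clusters at time 2. The median range was 0.24 and 0.27. Among members of at least 50 CPM the widest range was that of Rpl39l, at 4.49 and 5.22, and it was the only one at or above 1. After it came Rpl39, Rpl7l1, Rps4x and Rpl10 at time 1 (0.88 to 0.75), and Rpl39, Rpl36a, Rpl7l1 and Rpl10 at time 2 (0.95 to 0.80).

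Rpl39l, known as the paralog of Rpl39 made in male germ cells and stem cells, was highest in cluster 6, at 183 CPM at time 1 and 177 at time 2. It stood at 179 and 123 CPM in the two-cell-like cluster 12, at 91.6 and 78.0 in cluster 3, and at 33.7 and 32.7 in the primed epiblast-like cluster 2. The lowest value was in the mesendoderm-like cluster 10, at 7.66 CPM (81 UMIs) and 4.23 CPM (48 UMIs). Rpl10l, a germ cell paralog of Rpl10 below the 50 CPM minimum, was also highest in cluster 6 and lowest in cluster 10, with 46.2 and 41.9 CPM in cluster 6, 39.9 and 36.3 in cluster 12, and 1.70 and 0.97 in cluster 10.

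Rpl29, a large-subunit protein that also binds heparin, was highest in fibroblast-like cells relative to the other members, at 5861 and 5974 UMIs in 1000000 member UMIs against 3856 and 3570 in the two-cell-like cluster. Rps27l, a paralog of Rps27 that responds to p53, was highest in fibroblast-like cells too (4957 and 5301) and lowest in cluster 12 at time 1 (3642) and cluster 7 at time 2 (3638). Rpl22l1 was highest in the mesendoderm-like cluster 10, at 5024 and 4153 on the same scale. Rpl7l1 was highest in cluster 6 and lowest in fibroblast-like cells, at 203 and 104 CPM at time 1 and 264 and 131 CPM at time 2.

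**Figure D5:**
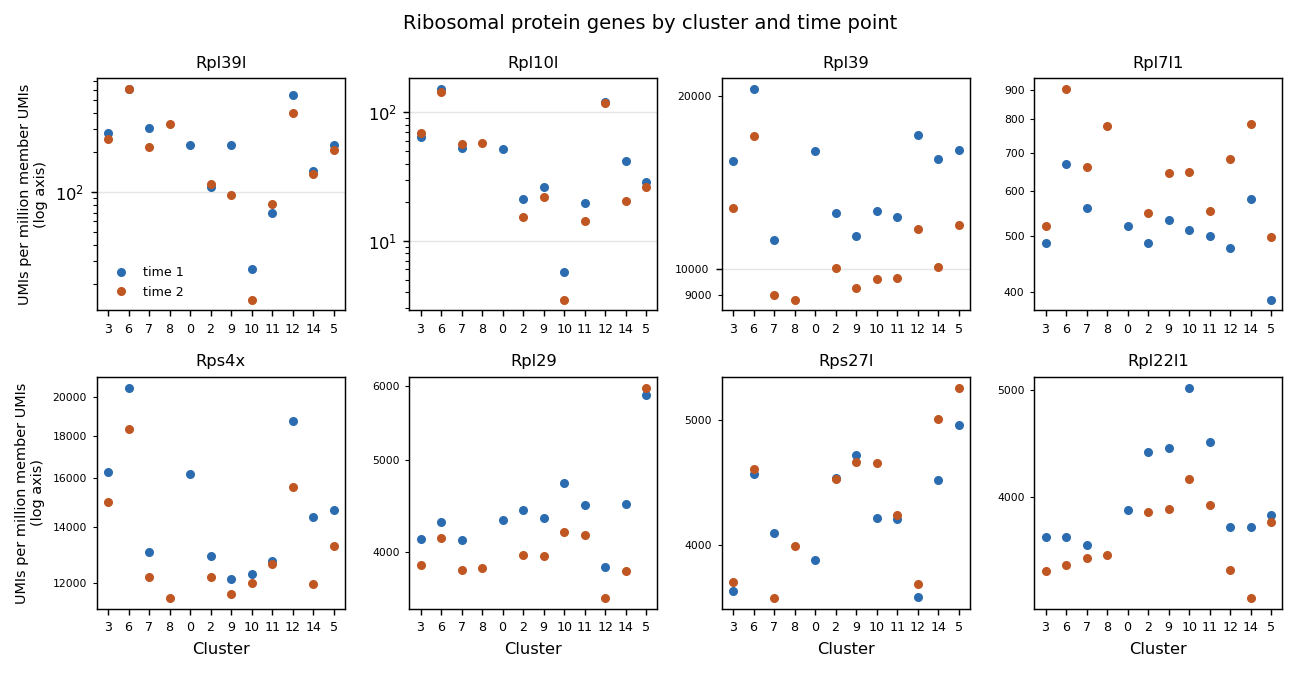
UMIs in 1000000 member UMIs (vertical log axes) of 8 members in clusters with at least 50 cells (horizontal axis) at time 1 and time 2. Rpl39l and Rpl10l fall to their lowest values in the mesendoderm-like cluster 10, Rpl29 is highest in the fibroblast-like cluster 5, and Rpl39 and Rps4x are lower at time 2 in every cluster drawn for both.

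Levels of the other paralogs in the 4 pooled clusters were as follows. Rpl36al, a paralog of Rpl36a on chromosome 12, had 1195 and 1095 CPM at time 1 and time 2, and Rps27l 1258 and 1172. Rpl22l1 had 1173 and 1052 CPM. Rpl3l, the striated muscle paralog of Rpl3, had 1.79 and 1.75 CPM. Rps6kl1 had 24.4 and 12.3 CPM, with 21.6 and 7.91 in cluster 6, and was highest in cluster 3 in both libraries.

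Of the other genes of the translation machinery, those of ribosome biogenesis had a higher median than the members, and translation factors lay closer to them. Of 34 listed ribosome biogenesis genes, 32 reached 50 CPM in at least 1 library in the 4 pooled clusters. Of these, 26 were at least 1.2-fold higher at time 2 and 0 lower, where 29.9% and 17.9% of all genes were. Their median was 0.44 beside 0.09 over all genes. Polr1a, Nop2, Utp4, Utp20, Bop1 and Bysl reached 50 CPM at time 2 only, so the minimum itself favoured higher values for them. All of them but Bysl are among the 26. Without the minimum the list's median was 0.43. Nop56, a small nucleolar RNP protein, went from 270 to 349 CPM (log2 0.37). In cluster 6 the list's median was 0.31, with 20 of 32 higher, where 21.4% of all genes were. In fibroblast-like cells it was 0.43, with 14 of 22 higher, where 20.6% were. Polr1a, Nop2, Utp4, Bop1 and Bysl passed the minimum at time 2 only in cluster 6, as did Wdr12 and Rrp1b in fibroblast-like cells. Translation factors whose messages begin with a pyrimidine run (20 genes, of which Npm1 is in both lists) had a median of 0.03, with 2 higher and 2 lower, and of -0.019 over all filtered cells (-0.010 without cluster 13). In cluster 6 their median was -0.05 beside -0.07 for the members, and in fibroblast-like cells -0.01 beside -0.04. Eef2, an elongation factor, was among the lower ones (1302 to 1070 CPM, -0.28). Fau went from 4389 to 3848 CPM (-0.19). Mitochondrial ribosomal proteins (65 of 78 measured) had a median of 0.16, with 17 higher and 7 lower.

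Across gains the lists were compared over genes off the gained chromosome. With chromosome 11 at time 1 the 75 measured members elsewhere had a median of -0.11 and the 18 translation factors elsewhere -0.07, with 17 of 18 below 0, beside -0.03 for 21 biogenesis genes, 0.11 for 54 mitochondrial ribosomal proteins and -0.01 for all genes. Inside cluster 3 these medians were -0.14, -0.11, 0.04, 0.16 and 0.02, and in 1+8+11 over 1+8 they were -0.12, -0.15, -0.04, 0.10 and 0.004. With 1+8+14 over 1+8 the first 4 were -0.08, -0.07, 0.02 and -0.02 in the same order. With chromosome 8 over none at time 2 they were 0.05, 0.05, 0.02 and -0.07, and with chromosome 1 they were 0.02, 0.05, 0.02 and -0.05.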

How the data were processed

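Single cells were captured with 10x Chromium version 3.1 chemistry in 1 library per time point, per the labels' protocols. The authors deposited UMI counts per gene and barcode, whole numbers with no normalisation. The submitters' processing notes name Cell Ranger 6.1.2, bcl2fastq 2.20.0.422 and builds mm10 and GRCm38. Of 32285 genes, 32235 matched GENCODE M21 by identifier. The libraries held 1735810403 UMIs at time 1 and 1843588321 at time 2. Members and gene lists were chosen with earlier results of these data known.

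The UMI minimum for a cell was 18315 and 18645, which is 0.1 of the value at percentile 99 of the 20000 deepest barcodes, with 1000 detected genes or more and no more than 10% of UMIs mitochondrial. A Scrublet-style score found no clear threshold, so 0.15 was set after seeing the scores, and 1437 (5.58%) and 2981 (10.6%) cells were removed as doublets. Clustering used 2000 variable genes without members, 30 components, 15 neighbours and Leiden resolution 0.5 (scanpy 1.11.5, igraph 0.11.9). Gain calls used 11304 autosomal genes, and X dosage 402 X-linked genes, leaving out every ribosomal protein gene and any gene with over 3% of its chromosome's UMIs. Cells with at least 2 UMIs of 4 Y-linked genes set the X reference, in each library separately. Log2 ratios are of CPM plus 1 over summed UMIs, with a minimum of 50 CPM in either class. Intervals are Clopper-Pearson for shares and Poisson-based for counts, at 95%. The ratio formula and a simplified gain call, with at most 1 gain in a cell, were checked on simulated data, and the other steps were not.

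Named genes were all members on chromosomes 1, 8, 11, 14 and X, all paralogs, the 5 highest, lowest, most abundant and most variable across clusters, and members below 10 CPM, except that some of these are not reported here. Rpl35, Rpl29, Eef2, Fau and Nop56 were named after their values were seen. Alternatives changed the scaling (edgeR 4.0.16), pseudocount, minimum, population, gain threshold, thinning and denominator.
Contrasts for chromosomes 14 and 11, and values for clusters 3, 6 and 0, were added after class sizes and clusters were seen.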

Additional observations from a re-analysis of the deposited data

Results flagged for a closer look

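Barcodes under 1000 UMIs, which entered no comparison of cells, still carried much ribosomal protein RNA: 28.2% of 3797283 UMIs at time 1 and 20.6% of 4783950 at time 2. Mitochondrial genes took 1.18% and 2.58% of UMIs in them. Rpl35 and Rpl39 had log2 ratios of time 2 over time 1 of -1.05 and -0.94 there, and Rpl7 0.21.

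Cluster 13, with 68 cells of time 1 and none of time 2, held 39.1% ribosomal protein UMIs, above the other clusters of time 1. Its cells had a median of 352474 UMIs and 0.104% mitochondrial UMIs, against 45095 and 2.42% over all time 1 cells. It was left unnamed and entered only the values over all filtered cells, where the share at time 2 minus time 1 was -2.00 points with it and -1.85 without it.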

How the results depend on the processing

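Of 158 values recomputed under alternatives, 23 moved by no more than the counting error, 112 by more without a change of sign, and 5 changed sign. The other 18 are counts of genes, of which 9 stayed within 1.5 times and 9 did not. Counting error is small at this depth. Differences of shares are in points. Thinned cells stand for gain calls that changed the depth (10000 UMIs), the reference (all autosomes) and the limit for no gain together. X-low cells with 11 alone at time 1 numbered 35. The changes of sign were the share with chromosome 1 at time 2 (thinned cells, X-low cells), the members' median under TMM and the translation factors over all filtered cells, with and without cluster 13, and the cause was not tested. The share of UMIs, time 2 minus time 1, reported as -2.03, was -2.00 (all filtered cells), -1.54 (cluster 2 added), -2.00 (core proteins only), -2.14 (nuclear genes as denominator), -2.09 (a mitochondrial limit of 5%), -1.85 (cells above the median UMIs), -0.58 (cluster 3 left out), -2.22 (cluster 0 added) and -1.18 (cluster 6 only). The share over all filtered cells, time 2 minus time 1, reported as -2.00, was -2.02 (a minimum of 5000 UMIs and doublets kept) and -1.85 (without cluster 13). The share in fibroblast-like cells minus the 4 pooled clusters, time 1, reported as -5.13, was -5.09 (core proteins only), -5.39 (nuclear genes as denominator), -5.19 (a mitochondrial limit of 5%) and -5.89 (cells above the median UMIs). The share in fibroblast-like cells minus the 4 pooled clusters, time 2, reported as -3.51, was -3.50 (core proteins only), -3.66 (nuclear genes as denominator) and -3.14 (cells above the median UMIs). The share with a gain of 1 minus none, time 2, reported as 0.27, was 0.33 (core proteins only), 0.51 (nuclear genes as denominator), 0.30 (a mitochondrial limit of 5%), 0.098 (cells above the median UMIs), 0.24 (a gain threshold of 1.4), -0.027 (thinned cells), -0.11 (X-low cells only) and 0.12 (the largest cluster only). The share with a gain of 8 minus none, time 2, reported as 1.18, was 1.19 (core proteins only), 1.31 (nuclear genes as denominator), 1.19 (a mitochondrial limit of 5%), 0.90 (cells above the median UMIs), 1.36 (a gain threshold of 1.4), 1.13 (thinned cells), 0.77 (X-low cells only) and 0.54 (the largest cluster only). The share with a gain of 8 minus none, time 1, reported as 1.39, was 1.37 (core proteins only), 1.47 (nuclear genes as denominator), 1.43 (a mitochondrial limit of 5%), 1.301 (cells above the median UMIs), 1.71 (a gain threshold of 1.4), 1.47 (thinned cells), 0.93 (X-low cells only) and 0.74 (the largest cluster only). The share with a gain of 1+8+14 minus 1+8, time 2, reported as -1.22, was -1.19 (core proteins only), -1.21 (nuclear genes as denominator), -1.21 (a mitochondrial limit of 5%), -1.01 (a gain threshold of 1.4), -1.04 (thinned cells), -1.23 (X-low cells only) and -0.91 (the largest cluster only). The share with a gain of 11 minus none, time 1, reported as -1.17, was -1.21 (nuclear genes as denominator), -0.93 (cells above the median UMIs), -1.42 (a gain threshold of 1.4), -1.37 (thinned cells), -2.46 (X-low cells only) and -1.72 (the largest cluster only). The median member log2 ratio of time 2 over time 1, reported as -0.10, was -0.11 (all filtered cells), 0.043 (TMM), -0.0055 (members as total), -0.099 (other autosomes as total), -0.10 (no CPM minimum), -0.13 (cells with no gain), -0.065 (cluster 6 only) and -0.10 (cluster 3 only). The count of members at least 1.2-fold higher, reported as 5, was 8 (TMM), 3 (cells with no gain), 2 (cluster 6 only), 0 (cluster 3 only), 4 (all filtered cells) and 6 (members as total), where 46.1%, 28%, 21.4%, 17.8%, 29.8% and 40.4% of all genes were. The count of members at least 1.2-fold lower, reported as 11, was 4 (TMM), 6 (members as total), 6 (cells with no gain), 4 (cluster 6 only), 5 (cluster 3 only) and 13 (no CPM minimum), where 11.9%, 14.1%, 12.2%, 12.2%, 6.83% and 15% of all genes were. The median log2 ratio on chromosome 1, 1 over none, time 2, reported as 0.51, was 0.52 (a gain threshold of 1.4), 0.43 (thinned cells), 0.55 (X-low cells only), 0.54 (the largest cluster only), 0.56 (other autosomes as total), 0.50 (members as total) and 0.54 (TMM). The median log2 ratio on chromosome 8, 8 over none, time 2, reported as 0.62, was 0.63 (a gain threshold of 1.4), 0.47 (thinned cells), 0.56 (X-low cells only), 0.55 (the largest cluster only), 0.66 (other autosomes as total), 0.56 (members as total) and 0.67 (TMM). The median log2 ratio on chromosome 8, 8 over none, time 1, reported as 0.58, was 0.60 (a gain threshold of 1.4), 0.56 (thinned cells), 0.54 (X-low cells only), 0.53 (the largest cluster only), 0.62 (other autosomes as total), 0.51 (members as total) and 0.63 (TMM). The median log2 ratio on chromosome 14, 1+8+14 over 1+8, time 2, reported as 0.47, was 0.49 (a gain threshold of 1.4), 0.38 (thinned cells), 0.47 (X-low cells only), 0.48 (the largest cluster only), 0.53 (members as total) and 0.46 (TMM). The median log2 ratio on chromosome 11, 11 over none, time 1, reported as 0.48, was 0.46 (thinned cells), 0.41 (X-low cells only), 0.46 (the largest cluster only), 0.50 (other autosomes as total), 0.54 (members as total) and 0.42 (TMM). The median X-linked log2 ratio, time 1, reported as 0.69, was 0.68 (other autosomes as total), 0.74 (members as total), 0.63 (TMM), 0.69 (cells with no gain) and 0.71 (X limits of 1.4 and 1.1). The median X-linked log2 ratio, time 2, reported as 0.69, was 0.63 (other autosomes as total), 0.71 (members as total), 0.57 (TMM), 0.74 (cells with no gain) and 0.78 (X limits of 1.4 and 1.1). The list median of translation factors, reported as 0.032, was 0.18 (TMM), -0.019 (all filtered cells) and -0.010 (those without cluster 13). The list median of ribosome biogenesis, reported as 0.44, was 0.58 (TMM), 0.43 (no CPM minimum), 0.52 (all filtered cells) and 0.51 (those without cluster 13). The list median of mitochondrial ribosomal proteins, reported as 0.16, was 0.30 (TMM), 0.16 (no CPM minimum), 0.0996 (all filtered cells) and 0.12 (those without cluster 13). No paired analysis was possible because each time point has 1 library. Keeping doublets was not run by cell class or gain class, since removed doublets had no cluster or gain call. Alternatives by single cluster or without 1 were chosen after seeing the data. Depth limits the rare members: Rpl10l rests on 18 and 11 UMIs in cluster 10.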
